A study of Mus musculus with 4 samples.

Results

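The tyrosine and dual-specificity phosphatase genes are the 40 of 10598 genes in the deposited table whose symbol begins with Ptpn, Ptpr plus a letter, Dusp plus a digit, Ubash3 or Ptp4a, and they were chosen by symbol alone. By class they comprised 9 MAP kinase phosphatases, 5 atypical dual-specificity phosphatases, 13 non-receptor and 7 receptor-type tyrosine phosphatases, 3 PRL phosphatases, 2 UBASH3 proteins and Ptprcap, an adaptor of the CD45 phosphatase that has no phosphatase domain and enters by its symbol. RNA had been sequenced from whole thymus of C57BL/6J mice in 4 groups, each held by 1 library: CAMKIIgamma-/- mice given MNU, wild-type mice given MNU, CAMKIIgamma-/- mice given vehicle and wild-type mice given vehicle. CAMKIIgamma-/- mice lack Camk2g, which encodes the gamma form of the calmodulin-activated kinase CaMKII, and are called knockout here. MNU (N-methyl-N-nitrosourea) is an alkylating mutagen that induces T-cell lymphoma, given once at 75 mg/kg to mice aged 4 to 5 weeks, with 6 months as the labelled treatment time. The study addressed how loss of the kinase limited this lymphoma. The labels do not say whether a library came from 1 animal or from a pool, and with 1 library per group no difference below has a replicate check or a p-value.

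Signalling from the T-cell receptor runs through tyrosine kinases such as LCK and ZAP70 and on to the MAP kinases ERK, JNK and p38. Tyrosine phosphatases set the state of the proximal kinases: CD45 keeps LCK ready for activation, whereas PTPN22 and SHP-1 remove phosphate from activated kinases. MAP kinase phosphatases remove phosphate from both the threonine and the tyrosine of activated MAP kinases, and several of them are themselves induced by ERK, so that their transcripts form a negative feedback loop. In the thymus the strength of these signals decides which thymocytes survive selection.

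All values below are normalized counts scaled by the authors, which summed to between 32911400 and 34836300 per library, and log2 differences are of the normalized count plus 10. Camk2g stood at 29.7 in knockout with MNU and 3173 in wild type with MNU, against 489 in knockout with vehicle and 2749 in wild type with vehicle. Thymocyte markers were present in all 4 libraries, with 0 of 10 under 10 normalized counts in any. Of 15 thymic epithelial markers, 7 stood under 10 in wild type with MNU, among them Foxn1, the master regulator of thymic epithelium, listed at 0. Psmb11, Krt8, Aire and Krt18 stood little above it there, at 12.0, 27.8, 29.6 and 38.9. Well above it were Cdh1 at 2855, Ly75 at 1319, Epcam at 784 and Cldn4 at 457. In wild type with vehicle these stood at 2028 for Cdh1, 4774 for Ly75, 1389 for Epcam and 815 for Cldn4. Spearman's rho across genes was between 0.837 and 0.867 for wild type with MNU against each other library and between 0.981 and 0.982 among the other three. The knockout library with vehicle held part of the wild-type MNU profile: 42 genes exceeded 1000 in wild type with MNU and were there over 20 times their level in knockout with MNU and in wild type with vehicle. Over these, knockout with vehicle stood at a median of 15.4% of the way to wild type with MNU, measured from the mean of the 2 low libraries. Counts of members that use the knockout vehicle library, and medians of lists in the text that use it, are therefore also given without it. For MNU in knockout and for knockout against wild type with vehicle, knockout with MNU is then set against wild type with vehicle. Genotype and MNU differ together in that comparison.

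In wild-type mice, 7 of the 40 phosphatase genes (17.5%) were at least 2-fold higher with MNU than with vehicle, against 7.14% of the 10587 genes analysed, and 6 (15.0%) were at least 2-fold lower, against 14.2% of all genes. The share of lower members was thus close to the background. In wild type, those higher were Dusp9, Dusp10, Ptpn13, Ptpn14, Ptpn22, Ptprf and Ptprv, and those lower were Dusp4, Dusp5, Dusp6, Dusp7, Dusp16 and Dusp28. The member median was -0.11 on the log2 scale beside -0.01 for all genes, and the members ran from -2.75 for Dusp4 to 3.79 for Dusp9. All 40 members passed the filter on low values. Wild type with MNU was the highest of the 4 libraries for 16 members (40%, against 44.4% of all genes) and the lowest for 19 (47.5%, against 43.3%). The ratio of the highest to the lowest library had a median of 1.68 over the members and 1.47 over all genes. With wild type with MNU left out those medians were 1.22 and 1.15. In these bulk samples fewer cells of a type and less RNA per cell cannot be told apart.

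**Figure D1:**
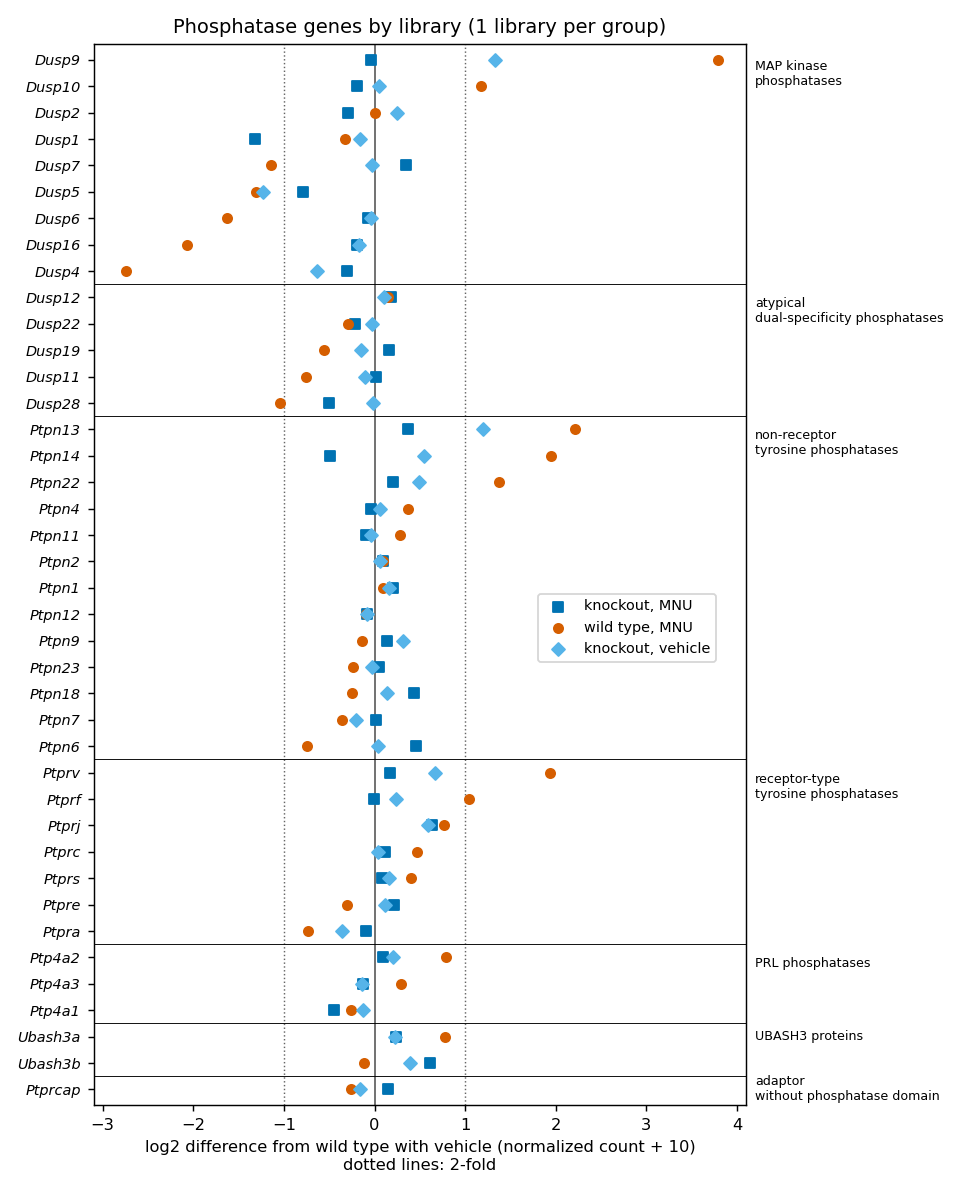
Log2 difference of each of the 40 phosphatase genes from wild type with vehicle (x axis, normalized count plus 10) in knockout with MNU (squares), wild type with MNU (circles) and knockout with vehicle (diamonds), 1 library each, grouped by class (rows). The circles of wild type with MNU spread from -2.75 for Dusp4 to 3.79 for Dusp9, and most squares and diamonds lie between the dotted 2-fold lines.

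The MAP kinase phosphatases differed in both directions. Of the 9 measured, 5 were at least 2-fold lower with MNU than with vehicle in wild type, against 14.2% of all genes. At least 2-fold higher were 2, against 7.14% of all genes, and the median log2 difference of the 9 was -1.14. In the knockout mice the median was -0.03, and -0.19 with wild type with vehicle as the baseline. Among the lower members, Dusp4, a nuclear phosphatase of ERK and JNK, stood at 630.2 in knockout with MNU and 108 in wild type with MNU, against 500.2 in knockout with vehicle and 780.4 in wild type with vehicle. It was 7.25-fold lower with MNU in wild type, the largest decrease of any member, and the other 3 libraries all exceeded 500. Dusp16, a phosphatase that prefers JNK and p38, stood at 1131 in knockout with MNU and 301 in wild type with MNU, against 1143 in knockout with vehicle and 1291 in wild type with vehicle. The wild-type MNU library was the lone low one for this gene, at a log2 difference of -2.06 from wild type with vehicle.

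Dusp6, a cytoplasmic phosphatase specific for ERK and itself an ERK-induced gene, stood at 1814 in knockout with MNU and 609.7 in wild type with MNU, against 1854 in knockout with vehicle and 1906 in wild type with vehicle. It was 3.13-fold lower with MNU in wild type, and the 3 other libraries lay close together. Dusp7, the closely related cytoplasmic ERK phosphatase, stood at 1444 in knockout with MNU and 506 in wild type with MNU, against 1107 in knockout with vehicle and 1129 in wild type with vehicle. Dusp5, a nuclear ERK phosphatase, had another pattern, at 499.5 in knockout with MNU and 347 in wild type with MNU, against 364 in knockout with vehicle and 872 in wild type with vehicle. Here wild type with vehicle was the lone high library, and the knockout vehicle library stood 2.39-fold below it.

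Promoters of 4 MAP kinase phosphatase genes are shown because Dusp5 and Dusp6 were lower in wild type with MNU while Dusp1 and Dusp2, which like them are rapidly induced in stimulated lymphocytes, stayed within 2-fold. Each window runs from 250 bases before to 50 bases after the start of the gene in RefSeq, build GRCm38.p6, which is not the mm9 build named for the data. Capitals mark letters that match 1 of 7 motifs searched on both strands: CRE (TGACGTCA), ETS (CCGGAA), EGR (GCGGGGGCG), AP-1 (TGANTCA), E-box (CACGTG), RBPJ (GTGGGAA) and the CArG box bound by serum response factor. Dusp5 lies on the plus strand at chr19:53528895-53529194, Dusp6 on the plus strand at chr10:99262981-99263280, Dusp1 on the minus strand at chr17:26508423-26508722 and Dusp2 on the plus strand at chr2:127335909-127336208.
Dusp5: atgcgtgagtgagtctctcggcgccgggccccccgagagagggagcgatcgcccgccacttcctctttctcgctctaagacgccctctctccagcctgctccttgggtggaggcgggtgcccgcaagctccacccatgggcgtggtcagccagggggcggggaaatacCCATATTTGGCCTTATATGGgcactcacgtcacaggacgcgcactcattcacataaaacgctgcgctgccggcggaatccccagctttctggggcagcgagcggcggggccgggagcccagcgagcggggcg
Dusp6: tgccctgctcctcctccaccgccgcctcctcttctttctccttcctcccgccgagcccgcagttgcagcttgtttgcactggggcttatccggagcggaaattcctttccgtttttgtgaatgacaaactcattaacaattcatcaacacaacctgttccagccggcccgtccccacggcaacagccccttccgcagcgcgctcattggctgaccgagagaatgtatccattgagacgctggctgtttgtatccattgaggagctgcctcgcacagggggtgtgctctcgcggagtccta
Dusp1: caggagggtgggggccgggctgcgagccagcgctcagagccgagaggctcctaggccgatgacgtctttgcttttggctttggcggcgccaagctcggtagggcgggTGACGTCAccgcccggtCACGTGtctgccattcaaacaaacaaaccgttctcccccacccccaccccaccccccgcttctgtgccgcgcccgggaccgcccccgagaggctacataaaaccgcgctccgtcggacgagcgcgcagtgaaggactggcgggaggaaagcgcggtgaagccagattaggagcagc
Dusp2: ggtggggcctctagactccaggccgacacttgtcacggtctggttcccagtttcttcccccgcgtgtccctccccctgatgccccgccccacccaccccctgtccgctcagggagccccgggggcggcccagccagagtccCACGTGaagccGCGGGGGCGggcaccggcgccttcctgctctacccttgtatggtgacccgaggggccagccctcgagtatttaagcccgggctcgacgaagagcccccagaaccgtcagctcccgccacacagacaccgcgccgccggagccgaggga

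The Dusp5 window held 2 adjacent CArG boxes, at bases 169 to 178 and 179 to 188 of the window, and CArG boxes were found in 1.63% of the 32851 promoter windows of all genes. The Dusp1 window held a CRE at bases 108 to 115 and an E-box at bases 125 to 130, and the Dusp2 window an E-box and an EGR motif. None of the 7 motifs was found in the windows of Dusp6, Dusp7, Dusp10 or Dusp16. Dusp4 and Dusp9 were not among the matched genes. Promoter windows were matched for 32 of the 40 members, 40 windows in all. In them CRE was found in 3 windows (7.50%, against 1.79% of all windows), EGR in 5 (12.5%, against 2.91%), E-box in 3 (7.50%, against 7.15%), ETS in 3 (7.50%, against 14.9%), AP-1 in 1 (2.5%, against 7.81%), CArG in 1 (2.5%, against 1.63%), and RBPJ, the site of the NOTCH effector, in 0 (against 6.38%). The matches describe letters in these windows only.

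The other MAP kinase phosphatases were higher or little different in wild type with MNU. Dusp9, a cytoplasmic ERK phosphatase best known from placenta, stood at 29.7 in knockout with MNU and 553 in wild type with MNU, against 92.5 in knockout with vehicle and 30.7 in wild type with vehicle. It was 18-fold higher with MNU in wild type, the largest difference of any member, and the knockout MNU and wild-type vehicle libraries were near each other. Dusp10, which like Dusp16 prefers JNK and p38, stood at 2343 in knockout with MNU and 6067 in wild type with MNU, against 2760.4 in knockout with vehicle and 2674 in wild type with vehicle. These 2 phosphatases that prefer JNK and p38 thus differed in opposite directions, Dusp10 2.27-fold higher and Dusp16 4.29-fold lower with MNU in wild type.

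Dusp1, a nuclear phosphatase of p38, JNK and ERK induced by stress, had its low value in another library, at 862 in knockout with MNU and 1722 in wild type with MNU, against 1936 in knockout with vehicle and 2161 in wild type with vehicle. Knockout with MNU was the lone low library, with a log2 difference of -1.16 from knockout with vehicle and -1.32 from wild type with vehicle. Dusp2, a nuclear phosphatase first found in activated T cells, varied least of the 9, at 2653 in knockout with MNU and 3264 in wild type with MNU, against 3845 in knockout with vehicle and 3248 in wild type with vehicle.

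**Figure D2:**
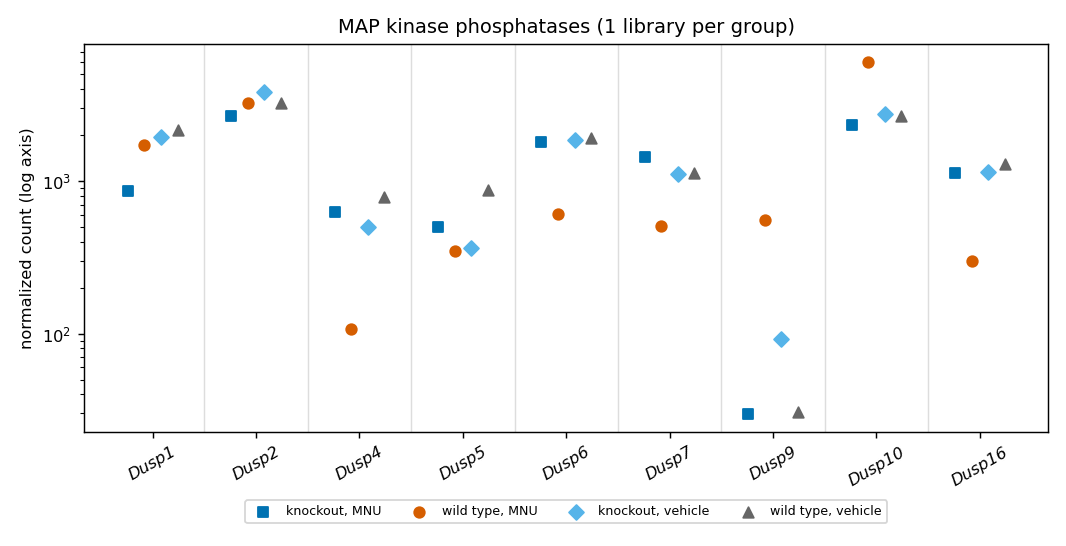
Normalized count (y axis, log scale) of the 9 MAP kinase phosphatase genes in knockout with MNU, wild type with MNU, knockout with vehicle and wild type with vehicle, 1 point per library. Wild type with MNU (circles) is the lowest point for Dusp4, Dusp5, Dusp6, Dusp7 and Dusp16 and the highest for Dusp9 and Dusp10, and knockout with MNU (squares) is the lowest for Dusp1 at 862.

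Genes that ERK induces, taken with other feedback inhibitors of the pathway as a list, were also lower in the median in wild type with MNU. Of 17 measured, 8 were at least 2-fold lower than with vehicle, against 14.2% of all genes, and 1 was higher, against 7.14%. The median log2 difference was -0.93, against 0.07 and 0 of 17 past 2-fold in the knockout mice. With wild type with vehicle as the baseline of the knockout difference, the median was -0.18 and 1 of 17 was lower. Cd69, an activation marker of thymocytes under selection, stood at 1751 in knockout with MNU and 41.7 in wild type with MNU, against 1663 in knockout with vehicle and 1980.3 in wild type with vehicle, so that wild type with MNU was its lone low library. Id3, an inhibitor of E proteins induced by receptor signals, stood at 3087 in knockout with MNU and 371 in wild type with MNU, against 2077 in knockout with vehicle and 2951 in wild type with vehicle. Egr2 and Egr1, zinc finger factors induced by ERK, had log2 differences of -3.19 and -2.44 with MNU in wild type. The 1 higher gene was Spry1, a feedback inhibitor named after its value was seen, at 412 in knockout with MNU and 1379.6 in wild type with MNU, against 815 in knockout with vehicle and 486 in wild type with vehicle.

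The MAP kinases on which these phosphatases act, and the kinases of the receptor, were read against the same 7.14% of genes higher and 14.2% lower with MNU in wild type. Among 20 MAP kinases and their activating kinases, 0 were higher and 2 lower at 2-fold in wild type with MNU, at a median of -0.02. The lower genes were Mapk13, a p38 isoform, at 56.6 in wild type with MNU against 149.7 in wild type with vehicle, and Mapk7, which encodes ERK5, at 920.2 in wild type with MNU against 1881 in wild type with vehicle. Mapk3, which encodes ERK1, and Map2k1, which encodes the ERK kinase MEK1, had log2 differences of -0.63 and -0.58. Of 26 T-cell receptor kinases and adaptors, 1 was higher and 6 lower with MNU in wild type, at a median of -0.37. Cd5, a receptor whose level follows receptor signal strength, was at -2.25 and Tec, a kinase upstream of phospholipase C gamma, at -2.23. The 1 higher gene, named after its value was seen, was Zap70. It stood at 13525 in wild type with MNU against 5992 in wild type with vehicle. In the knockout mice 0 of the 20 and 0 of the 26 passed 2-fold with MNU, at medians of 0.04 and 0.20. Against wild type with vehicle these counts were also 0, at medians of -0.017 and 0.019.

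Markers of other cells moved with these results, beside 14.2% of all genes lower and 7.14% higher with MNU in wild type. The 10 thymocyte markers summed to 324920 in knockout with MNU and 151535 in wild type with MNU, against 257692 in knockout with vehicle and 370409 in wild type with vehicle, and 5 of 10 were at least 2-fold lower with MNU in wild type. The list went both ways: Ptcra, the pre-T-cell receptor alpha chain, was 4.11-fold higher, at 901 in knockout with MNU and 5295 in wild type with MNU, against 1544 in knockout with vehicle and 1288 in wild type with vehicle, and Cd8a had a log2 difference of -0.23. The 6 dendritic cell and MHC class II markers summed to 161750 in knockout with MNU and 4856 in wild type with MNU, against 144472 in knockout with vehicle and 120066 in wild type with vehicle, all 6 being at least 2-fold lower with MNU in wild type. The 7 B cell markers summed to 8566 in knockout with MNU and 2110.5 in wild type with MNU, against 5059.7 in knockout with vehicle and 3224 in wild type with vehicle. The 8 cycling cell markers had a median log2 difference of 0.86 in wild type with MNU against vehicle. With MNU in wild type, 8 of 9 adipocyte markers were at least 2-fold lower, 4 of 6 NK cell markers lower and 1 higher, 4 of 9 macrophage markers higher, 3 of 4 neutrophil markers higher and 0 of 6 endothelial markers past 2-fold. The part of these shifts in the phosphatase differences was not tested.

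**Figure D3:**
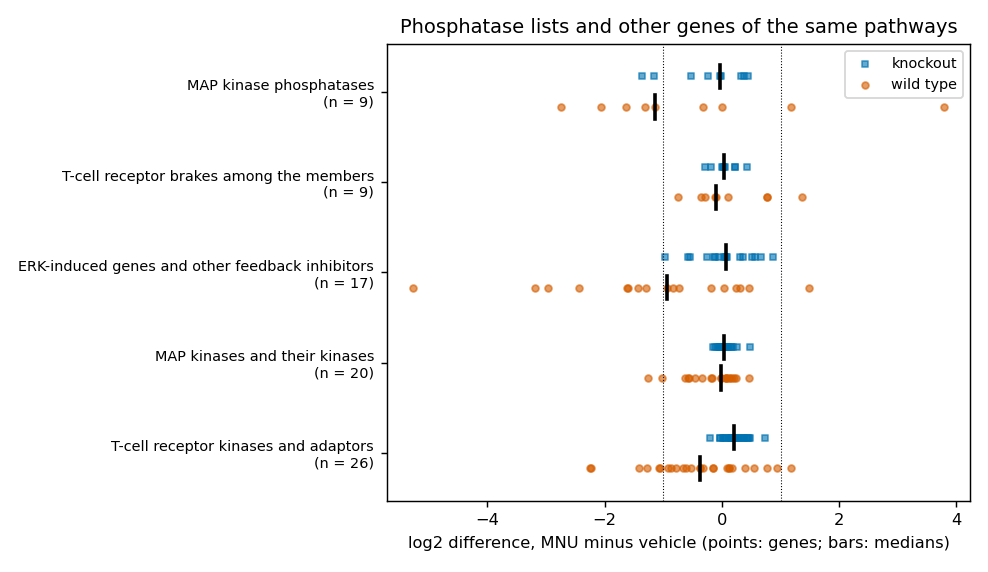
Log2 difference between MNU and vehicle (x axis) for each gene (points) of 2 phosphatase lists and 3 lists of other genes of the same pathways (rows), in knockout (squares) and wild type (circles), with black bars at the list medians. The wild-type medians are -1.14 for MAP kinase phosphatases and -0.93 for ERK-induced genes. Every knockout median, with the knockout vehicle library as baseline, lies between -0.03 and 0.20.

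Brakes on the T-cell receptor mostly lay within 2-fold, and the main exceptions were Ptpn22 and Ptpn6. Of 9 measured, 1 was at least 2-fold higher with MNU in wild type, against 7.14% of all genes. The list had 0 lower, against 14.2% of all genes, and a median log2 difference of -0.10. Ptpn22, which with the kinase CSK restrains LCK and ZAP70, stood at 4811 in knockout with MNU and 10802 in wild type with MNU, against 5881 in knockout with vehicle and 4173 in wild type with vehicle. It was 2.59-fold higher with MNU in wild type, and wild type with MNU was its lone high library. Ptpn6, which encodes SHP-1, a haematopoietic phosphatase recruited by inhibitory receptors, stood at 10511 in knockout with MNU and 4549 in wild type with MNU, against 7817 in knockout with vehicle and 7633 in wild type with vehicle. Its log2 difference with MNU was -0.75 in wild type and 0.43 in knockout, both within 2-fold and the second 0.46 against wild type with vehicle, and it was 2.31-fold higher in knockout than in wild type when both had MNU.

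Ubash3a and Ubash3b, which encode the suppressors of receptor signalling STS-2 and STS-1, differed from each other. Ubash3a stood at 2719 in knockout with MNU and 3952 in wild type with MNU, against 2686 in knockout with vehicle and 2304 in wild type with vehicle. Ubash3b stood at 591 in knockout with MNU and 352 in wild type with MNU, against 506 in knockout with vehicle and 383 in wild type with vehicle, so that wild type with MNU was the highest library for the first gene and the lowest for the second. Ptprj, which encodes the receptor phosphatase CD148, had its lone low value in wild type with vehicle, at 1949 in knockout with MNU and 2131 in wild type with MNU, against 1886 in knockout with vehicle and 1253 in wild type with vehicle.

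The remaining brakes lay within 2-fold in all 4 libraries. Ptpn2, a phosphatase of JAK and SRC family kinases, stood at 1995 in knockout with MNU and 1999 in wild type with MNU, against 1940.4 in knockout with vehicle and 1866 in wild type with vehicle. Ptpn12, a cytoskeletal PEST family phosphatase, stood at 1383 and 1372 in knockout and wild type with MNU, against 1387 and 1468 in knockout and wild type with vehicle. For Ptpn2 and Ptpn12 the highest library was 1.07-fold the lowest, the smallest ratios of the 40 members. Ptpn7, a lymphoid phosphatase of ERK and p38, stood at 10209.6 in knockout with MNU and 7858 in wild type with MNU, against 8772 in knockout with vehicle and 10073 in wild type with vehicle. Dusp22, a phosphatase that can inactivate LCK, stood at 511 in knockout with MNU and 483 in wild type with MNU, against 579.9 in knockout with vehicle and 593 in wild type with vehicle.

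Among phosphatases with wider roles, Ptpn13, Ptpn14, Ptprf and Ptprv were higher in wild type with MNU. Ptpn14, a cytoskeletal phosphatase that binds the growth regulator YAP, stood at 1863 in knockout with MNU and 10099 in wild type with MNU, against 3835 in knockout with vehicle and 2619.9 in wild type with vehicle, and was 3.85-fold higher with MNU in wild type. Ptpn13, a large scaffold phosphatase that binds the death receptor FAS, stood at 1072 in knockout with MNU and 3861 in wild type with MNU, against 1904 in knockout with vehicle and 826 in wild type with vehicle. For both genes knockout with vehicle was the second highest library.

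Ptprv, a receptor-type phosphatase known from mouse bone and as a p53 target in mouse, stood at 425 in knockout with MNU and 1469 in wild type with MNU, against 608 in knockout with vehicle and 378 in wild type with vehicle. Ptprf, which encodes the adhesion-linked receptor LAR, stood at 8699 in knockout with MNU and 18055 in wild type with MNU, against 10326 in knockout with vehicle and 8730.3 in wild type with vehicle. Over the 7 members at least 2-fold higher with MNU in wild type, the knockout vehicle library stood at a median of 19.3% of the way to wild type with MNU, from 7.07% for Dusp10 to 32.8% for Ptpn13, beside 15.4% over the 42 genes given above.

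Fibroblast markers moved in the same libraries: 5 of 9 were at least 2-fold higher with MNU in wild type, against 7.14% of all genes. The other 4 had negative log2 differences within 2-fold, of -0.86 for Thy1, -0.64 for Lum, -0.41 for Col6a1 and -0.17 for Dcn. Col1a1, a collagen chain, stood at 1542 in knockout with MNU and 10968 in wild type with MNU, against 3168 in knockout with vehicle and 2221 in wild type with vehicle. The 9 markers summed to 62596 in knockout with MNU and 78532 in wild type with MNU, against 69300.2 in knockout with vehicle and 66952 in wild type with vehicle, of which Thy1, also a T-cell gene, gave 43942 in knockout with MNU and 25638.5 in wild type with MNU, against 37573 in knockout with vehicle and 46524 in wild type with vehicle. Thymic epithelial markers had a median log2 difference of -7.89, with 12 of 15 lower and Cdh1 at 0.49. The part of stromal cells in these 4 genes was not tested.

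**Figure D4:**
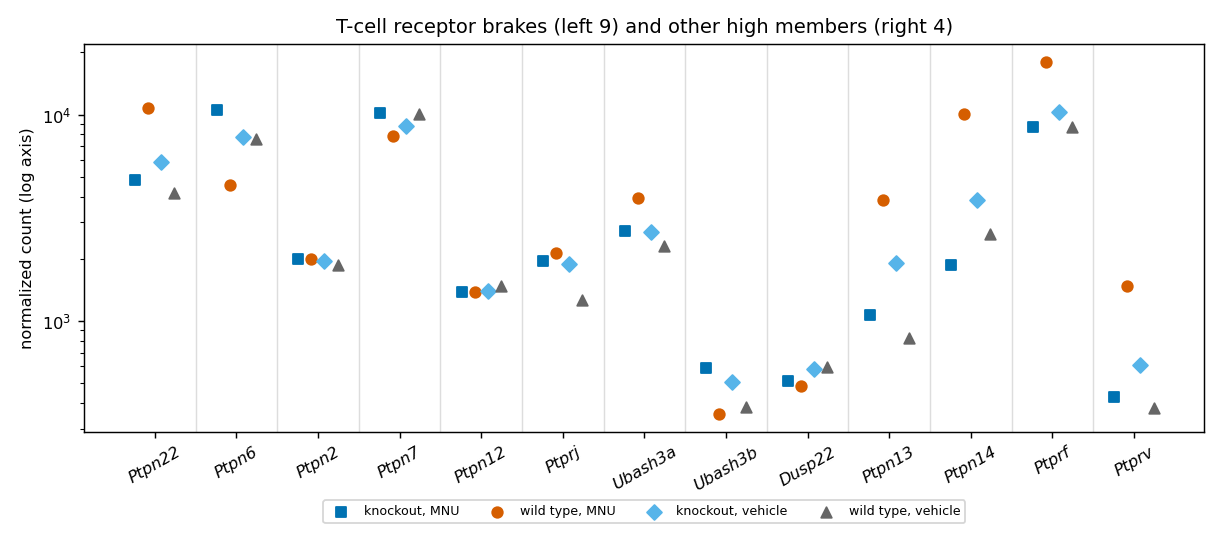
Normalized count (y axis, log scale) of the 9 T-cell receptor brakes and of Ptpn13, Ptpn14, Ptprf and Ptprv in knockout with MNU, wild type with MNU, knockout with vehicle and wild type with vehicle, 1 point per library. Wild type with MNU (circles) is the highest point for Ptpn22 at 10802 and for the 4 genes on the right, and the lowest for Ptpn6 at 4549.

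Phosphatases that promote signalling stayed within 2-fold. Ptprc, which encodes CD45, the phosphatase that primes LCK, stood at 47034 in knockout with MNU and 60342 in wild type with MNU, against 44719 in knockout with vehicle and 43492 in wild type with vehicle. Its adaptor Ptprcap went the other way, at 9402 in knockout with MNU and 7078 in wild type with MNU, against 7561 in knockout with vehicle and 8472 in wild type with vehicle. Ptpn11, which encodes SHP-2, an activator of the RAS and ERK pathway, stood at 5290.2 in knockout with MNU and 6868 in wild type with MNU, against 5489.9 in knockout with vehicle and 5637 in wild type with vehicle. Ptpra, an activator of SRC family kinases, had a log2 difference of -0.74 with MNU in wild type and 0.26 in knockout.

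The PRL phosphatases, small membrane-anchored enzymes linked to magnesium transport, also stayed within 2-fold, with log2 differences in wild type of 0.79 for Ptp4a2, 0.29 for Ptp4a3 and -0.26 for Ptp4a1. Ptp4a2 stood at 13152 in knockout with MNU and 21396 in wild type with MNU, against 14249 in knockout with vehicle and 12338 in wild type with vehicle, so that wild type with MNU was its lone high library. Of the atypical dual-specificity phosphatases, Dusp28 stood at 599.6 in knockout with MNU and 408 in wild type with MNU, against 838 in knockout with vehicle and 851 in wild type with vehicle. It was 2.09-fold lower with MNU in wild type. Dusp11, which acts on RNA 5′ ends, and Dusp19 had log2 differences of -0.76 and -0.56 there, while Dusp12 was nearly level at 0.15. The members not yet given, Ptpn1, Ptpn4, Ptpn9, Ptpn18, Ptpn23, Ptpre and Ptprs, had log2 differences between -0.30 for Ptpre and 0.40 for Ptprs with MNU in wild type.

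In knockout mice few phosphatase genes differed with MNU. At 2-fold 0 of 40 were higher, against 0.331% of all genes, and 3 (7.50%) were lower, against 2.95% of all genes. The lower members were Dusp1, Ptpn14 and Dusp9, with log2 differences of -1.16, -1.04 and -1.37. With wild type with vehicle in place of the knockout vehicle library, Dusp1 alone was 2-fold lower, and the differences of Ptpn14 and Dusp9 were -0.49 and -0.038. That comparison differs in genotype as well as in MNU. With the 15.4% share of wild type with MNU subtracted from the knockout vehicle library, Dusp1 was again the lone lower member, Ptpn14 stood at -0.53 and Dusp9 turned to 1.07. Markers of other cells differed in the same comparison. Adipocyte markers were lower for 8 of 9, summing to 17350.0 in knockout with MNU and 53339 in knockout with vehicle, and neutrophil markers higher for 4 of 4, summing to 1702 in knockout with MNU and 425 in knockout with vehicle. Fibroblast markers were lower for 3 of 9. Against wild type with vehicle, 6 of 9 adipocyte markers were lower, 4 of 4 neutrophil markers higher, 1 of 9 fibroblast markers lower and 7 of 7 B cell markers higher. Their part in the 3 phosphatase differences was not tested. The median absolute log2 difference was 0.22 over the members and 0.12 over all genes in the values as deposited.

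With MNU in both genotypes, some of these genes differed between knockout and wild type. Of the 40, 5 (12.5%) were at least 2-fold higher in knockout, against 15.0% of all genes, and 7 (17.5%) were lower, against 7.37% of all genes. The share of higher members was thus close to the background. The higher ones were Dusp4 (log2 difference 2.44), Dusp16 (1.87), Dusp6 (1.56), Dusp7 (1.49) and Ptpn6 (1.21). The lower ones were Dusp9 (-3.83), Ptpn14 (-2.43), Ptpn13 (-1.84), Ptprv (-1.77), Dusp10 (-1.37), Ptpn22 (-1.17) and Ptprf (-1.05). This comparison and that of MNU in wild type share the wild-type MNU library, so their differences are not separate measurements of it. Dusp1, at -0.99, and Dusp5, at 0.51, were not past 2-fold between the genotypes. Markers of other cells differed at 2-fold too. Thymic epithelial markers were higher in knockout for 12 of 15, and dendritic cell and MHC class II markers for 6 of 6. B cell markers were higher for 5 of 7 and adipocyte markers for 6 of 9. Fibroblast markers were lower for 5 of 9 and higher for 1, and cycling cell markers lower for 4 of 8. NK cell markers were higher for 4 of 6 and thymocyte markers for 4 of 10, each with 1 lower. The part of these markers was not tested.

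With vehicle, 2 of 40 phosphatase genes (5.00%) were at least 2-fold higher in knockout than in wild type, against 2.59% of all genes, and 1 (2.5%) was lower, against 0.359% of all genes. Dusp9 had a log2 difference of 1.33, Ptpn13 of 1.20 and Dusp5 of -1.24. When knockout with MNU stood in for the knockout vehicle library these were -0.038, 0.37 and -0.79, each within 2-fold, and Dusp1 was lower instead. With the share subtracted they were -1.11 for Dusp9, 0.90 for Ptpn13 and -1.22 for Dusp5. NK cell markers were at least 2-fold higher in knockout for 3 of 6, macrophage markers for 2 of 9 and B cell markers for 1 of 7. Of 9 adipocyte markers, 2 were higher and 1 lower. With knockout with MNU standing in, the macrophage markers Marco and Cd14, the 2 that had been higher, were at -1.05 and 0.38. The other macrophage markers lay between 0.82 for Csf1r and 1.05 for Mertk in that comparison. The NK cell markers Klrk1, Klrb1c and Nkg7 were then at 1.41, 1.29 and 0.94. The part of these markers was not tested.

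The MNU difference in knockout minus that in wild type reached 4-fold (2 on the log2 scale) for 6 of 40 members (15.0%), against 10.3% of all genes. It was positive for Dusp4 (3.07) and Dusp16 (2.05) and negative for Dusp9 (-5.16), Ptpn13 (-3.03), Ptpn14 (-2.98) and Ptprv (-2.44). Dusp5, at 1.75, lay next below the threshold. With the share subtracted, Dusp16 was no longer past it and the other 5 were. With wild type with vehicle as the baseline for both genotypes, the measure becomes knockout against wild type with MNU, given above.

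**Figure D5:**
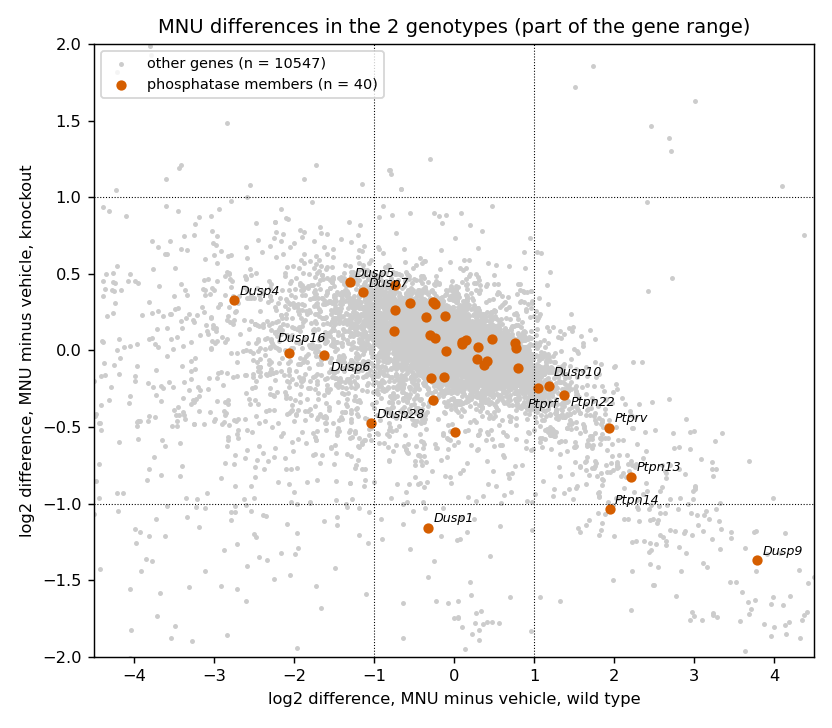
Log2 difference between MNU and vehicle in wild type (x axis) and in knockout (y axis) for the 40 phosphatase genes (orange) and all other genes (grey), with dotted lines at 2-fold. The plot leaves out 213 other genes beyond its axes. Dusp4 and Dusp16 lie far left near the middle of the y axis, Dusp9 far right and low, and Dusp1 is low near the middle of the x axis.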

How the data were processed

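RNA had been extracted with an RNeasy kit (integrity number above 7.5) and made into TruSeq libraries, per the labels' protocols, and the submitters' processing notes name TopHat2 2.0.8b, edgeR and build mm9 but give no role for any. The deposited table holds a signal per gene and library, called normalized counts per the file headers. How genes were counted, filtered and scaled is not stated. The values were not whole and reads could not be recovered, so no count model, counting interval or floor was computed, and the depth is known only as the sums given.

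To each value 10 was added before taking log2, with no rescaling, and 10587 of 10598 genes with a mean of at least 10 were kept. Genes were called at 2-fold, and the difference of MNU changes at 4-fold, over the whole table with Python 3.11.15 and pandas 2.3.3. No test was run, since each group had 1 library. The calling step was tested on simulated data.

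Members, lists, thresholds and alternatives were chosen with earlier results of these data known. Given in every library were members past 2-fold in any comparison with at least 100 in the higher library, T-cell receptor brakes and MAP kinase phosphatases, and named with values were up to 4 genes of each further list with the largest wild-type difference. Ptprc, Ptprcap, Ptpn11 and Ptp4a2 were added for their roles after their values were seen. Named outside the rule were Cd8a, Spry1, Zap70, Csf1r, Mertk, all the thymic epithelial markers given and the fibroblast markers Thy1, Lum, Col6a1 and Dcn. Dusp14, on the brake list, was not analysed here. Coordinates belong to the RefSeq promoter table alone.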

Additional observations from a re-analysis of the deposited data

Results flagged for a closer look

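For 5 phosphatase genes the difference with MNU had opposite signs in the knockout and wild-type pair and differed between them by at least 4-fold. As knockout minus wild type on the log2 scale it was 3.07 for Dusp4, -5.16 for Dusp9, -3.03 for Ptpn13, -2.98 for Ptpn14 and -2.44 for Ptprv. Each rests on 1 library per group, and the difference between the genotypes was not tested. With the share of wild type with MNU subtracted from the knockout vehicle library, the difference between the genotypes was still past 4-fold for these 5, but the knockout difference of Dusp9 turned to 1.07, the same sign as in wild type. Measured against wild type with vehicle, the knockout MNU library stood at -0.30 for Dusp4, 0.37 for Ptpn13 and 0.17 for Ptprv, each with the sign of its wild-type difference, and at -0.038 for Dusp9 and -0.49 for Ptpn14. The opposite signs of Dusp4, Ptpn13 and Ptprv were thus absent against wild type with vehicle. That baseline differs from knockout with MNU in genotype as well as in MNU. Dusp9 was nearly level against that baseline, at -0.038, so its opposite sign was not held there either. With the share subtracted, the knockout difference of Dusp9 had the same sign as in wild type.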

How the results depend on the processing

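Median-of-ratios and upper-quartile scaling, no filter, a mean of at least 100 and a pseudocount of 2.5 left every count of members as reported. A pseudocount of 40 lowered the count higher in knockout with vehicle to 1, the count lower with MNU to 2 in knockout and 5 in wild type, without Dusp9 and Dusp28, and the count whose MNU change differed to 5, without Dusp16. At a threshold of 4-fold (8-fold for the difference of changes), 2 members were higher and 2 lower for MNU in wild type, 0 lower for knockout given MNU, 1 higher and 2 lower in knockout than in wild type with MNU, 0 higher and 0 lower with vehicle, and 3 differed in their MNU change. With the wild-type MNU share subtracted from the knockout vehicle library, 1 member was higher and 1 lower with MNU in knockout, and 0 were higher and 2 lower in knockout than in wild type with vehicle. Dusp9 then turned to 1.07 and -1.11 in those comparisons. With that library replaced, the MNU comparison in knockout and the vehicle comparison both became knockout with MNU against wild type with vehicle. In this single comparison 0 members were higher and 1 was lower, Dusp1. Dusp9 stood at -0.038 there, and Dusp5 at -0.79 was no longer past 2-fold. These changes follow from how the alternatives treat that library, and the cause of its values was not tested. No paired analysis was possible because each group has 1 library. What depth limits could not be measured, since reads could not be recovered.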
